A study of Citrus sinensis with 2 samples.

Results

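The miRNA names described here are those of the Medicago series. These are known miRNA names in the number runs miR2585 to miR2687 and miR5204 to miR5299. The rule uses numbers and no levels, but it was set with earlier results of these data known. Of the 1215 known miRNA names with a count in Citrus sinensis leaves, 120 belonged to the series, and 1 number of the second run was not analysed here. The first run gave 45 names out of 103 numbers, and the second gave 75 names out of 95 numbers. Both libraries came from leaves of 'Xuegan' sweet orange seedlings grown in river sand, which received nutrient solution with 0 mM MgSO4 (Mg-deficient) or 1 mM MgSO4 (Mg-sufficient, control) for 16 weeks. Seedlings were 5 weeks old at transplanting, treatment began 10 weeks later, and Na2SO4 replaced MgSO4 in the Mg-deficient solution to keep sulfur constant. Fully expanded leaves of 5 plants were mixed per treatment and sequenced as 1 library. One protocol line of the labels names roots, whereas the source and tissue labels name leaves, and the counts used here cover miRNAs alone, so the tissue was not checked against marker mRNAs.

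A plant miRNA is cut from a hairpin precursor by a Dicer-like enzyme and loaded into an Argonaute protein, where it guides the cleavage or the repression of mRNAs with a near-complementary site. In Arabidopsis, DCL1 makes the 21 nt class and DCL3 a 24 nt class of small interfering RNAs that act on chromatin. Argonaute proteins sort by the first base, with uracil favoured by AGO1 and adenine by AGO2 and AGO4. miRBase numbers its names in the order of registration, so that a run of numbers often goes back to 1 species, here the legume Medicago truncatula. Many names of such runs are known from few species, unlike the families from miR156 to miR408 that most land plants share. The citrus gene table of RefSeq (assembly DVS_A1.0) holds 129 miRNA genes, and 0 of the 120 names has a gene of the same number there. Of 24 conserved families taken for comparison, 21 have one. Matches were not counted for the other known names, so the absence cannot be called particular to the series.

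The sequences listed by the study for the names on which the results turn are given 5' to 3', with the seed (bases 2 to 8) in capitals. The 3 most abundant names were a 21 nt, a 20 nt and a 19 nt RNA, and their counts decide the level of the whole series.
miR5254: aGCGGUGGaagcaauugugua
miR2616: aUUGGGUUgggucggccggu
miR5224: cGGAAGACauugucaggac
The other names called higher in the Mg-deficient library for which a sequence is listed have the following sequences.
miR2610: aAGAUUUAgacauuguauggcguu
miR5290: aAUAUGAGuagaguagacaccua
miR5251: aGUAGAUCaguuggagcuu
Those called lower are these.
miR5259: cAAGGGGUauuuggauggaca
miR5268: aCAAGUGGaaugagauggaugguu
miR5256: aUAUAGGAuuaugaagauuaa
miR5210: uAGGAUGUguuuggaauugagguu
Names of similar abundance whose level differed little between the libraries are represented by a 21 nt and a 24 nt RNA.
miR5244: uUAUCGGAugaagauuguugg
miR5227: aCUGAAGAugaagacgaugaugaa
No genome was used here, so no position in the citrus genome is given for any of them. Reads were matched to known plant miRNAs with up to 2 mismatches, and a listed sequence need not be that of every read counted under its name.

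The Mg-sufficient library, called the control from here on, held 22218850 clean reads, and the library of leaves under Mg-deficiency held 20328011. Levels are counts per 1000000 clean reads (RPM), for which 1 count is 0.0450 RPM in the control and 0.0492 RPM under Mg-deficiency. Known miRNAs made up 22.9% of the clean reads in the former and 14.8% in the latter. These totals are those that the deposited counts carry under each treatment's label. The study's own text assigns the larger total, and the larger miRNA share of reads, to Mg-deficient leaves instead. Its fold changes, not used here, follow the deposited labels, with miR5256 lower under Mg-deficiency. By its account, qRT-PCR on replicate samples matched the sequencing pattern for most of the names measured, miR5256 among them. The conflict thus lies between the study's read summary and its own fold changes. Every direction given here is that of the libraries as labelled in the deposited counts, and all of them would turn round if the labels were exchanged. In the study's read summary, the smaller library also had a larger rRNA share and a smaller share mapped to the genome. Levels per clean reads do not adjust for this. With 1 library per treatment, no difference could be set against a spread between plants. All 95% intervals cover counting error only, and PCR copies are not independent molecules. In mixed tissue, fewer cells that make an RNA and less of it per cell cannot be told apart.

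The Medicago series as a whole was a small part of the known miRNAs. The 120 names together had 61064 counts (2748 RPM) in the control and 104283 counts (5130 RPM) under Mg-deficiency. These were 1.20% and 3.47% of the known miRNA counts, respectively. The log2 ratio of the sums was 0.90 (95% interval, 0.89 to 0.91), whereas for the 1095 other names together it was -0.67. Without miR2616 the log2 ratio of the sums was 0.22, an alternative chosen after the data were seen. In the control, miR5254 alone held 57.6% of the counts of the series and miR2616 0.933%. Under Mg-deficiency, miR2616 held 38.2%, and miR5254 (20.3%) came after miR5224.

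Most names of the series were rare. The median level was 0.833 RPM in the control and 0.492 RPM under Mg-deficiency, against 0.900 and 0.492 RPM for the other names. For the 24 conserved families the medians were 206 and 199 RPM. Counts were found in both libraries for 76 names, in the control only for 29, and under Mg-deficiency only for 15. Over all names, the shares were 62.6%, 21.2% and 16.3%, close to the 63.3%, 24.2% and 12.5% of the series. At least 10 RPM in at least 1 library was reached by 26 of the 120 names, or 21.7%, and by 26.7% of all names. Only 6 of the 120 were among the 100 most abundant known miRNAs, ranked by the mean of both levels, namely miR5254, miR2616, miR5224, miR2617, miR5244 and miR2610.

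**Figure D1:**
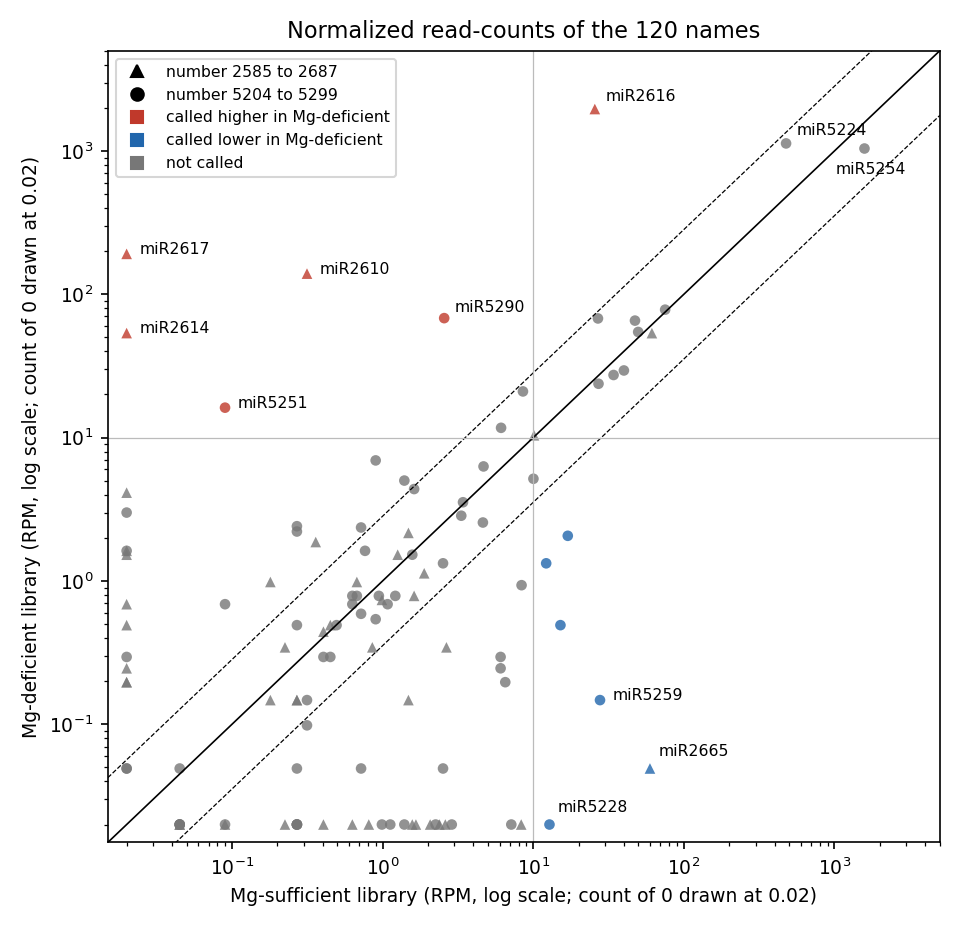
Level of each of the 120 names in the control (x axis) and the Mg-deficient library (y axis), both in RPM on log axes, with a count of 0 drawn at 0.02. Each point is 1 name, dashed lines mark a log2 ratio of 1.5 in either direction and grey lines mark 10 RPM. MiR2616 stands apart at 25.7 RPM in the control and 1960 RPM under Mg-deficiency, while miR5254 and miR5224 lie within the dashed lines.

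A name was called when it had at least 10 RPM in at least 1 library and a log2 ratio (Mg-deficiency over control) beyond 1.5. In addition, the smaller one-sided Audic-Claverie tail, whose side the data decide, had to be below 0.01. The formula compares the reads of these 2 libraries, not the treatments. Of the 26 names past the abundance filter, 6 were called higher and 6 lower under Mg-deficiency, and 14 were not called. Over all 324 known miRNAs past the filter, 28.1% (91) were called higher and 25.6% (83) lower, so the 23.1% of the series in each direction was near the background. With libraries scaled to their known miRNA counts, 10 names of the series were called higher and 5 lower. Over all known names, 114 and 65 were then called. With edgeR's TMM normalization or DESeq2's size factors, 9 names of the series were called higher and 6 lower, against 104 and 71 over all. The median log2 ratio of the 26 was 0.05, with 14 names above 0 and 12 below, and that of all 324 was -0.30. With clean-read scaling, called and uncalled names were far apart in size. The gap depends on the scaling, since miR5224 was called at 1.58 with TMM. The uncalled names lay between -0.96 (miR5294) and 1.33 (miR5298), whereas the ratio nearest to 0 was 4.73 (miR5290) among the names called higher and -3.04 (miR5210) among those called lower.

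MiR2616 had 570 counts in the control, or 25.7 RPM (95% interval, 23.6 to 27.8), and 39850 counts under Mg-deficiency, or 1960 RPM (1941 to 1980). It was 76.4-fold higher under Mg-deficiency, with a log2 ratio of 6.26 (6.14 to 6.38). It was the only called name of the series with at least 10 RPM in both libraries. At 65% G and C, its sequence is richer in these bases than the median of 41.7% over the listed sequences of the series. The study removed rRNA and tRNA reads, and the listed sequence was not compared with these RNAs here.

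MiR2610 had 7 counts in the control and 2833 counts under Mg-deficiency, 0.315 and 139 RPM, respectively. Its log2 ratio was 8.79 (95% interval, 7.74 to 10.10). MiR5290 had 57 counts (2.57 RPM) in the control and 1386 counts (68.2 RPM) under Mg-deficiency and was 26.6-fold higher, a log2 ratio of 4.73 (4.35 to 5.14). Both were low in the control, below 3 RPM. For miR5251, 2 counts were found in the control and 329 counts (16.2 RPM) under Mg-deficiency. The log2 ratio was 7.49, and the 2 counts leave an interval from 5.63 to 10.54.

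MiR2617 and miR2614 were found under Mg-deficiency only. MiR2617 had 3891 counts there, or 191 RPM (95% interval, 185 to 198), and miR2614 had 1090 counts, or 53.6 RPM (50.5 to 56.9). A count of 0 in the control allows up to 3 counts, or 0.135 RPM. Against this limit, the measured level was 1418-fold higher for miR2617 and 397-fold higher for miR2614. With counting error in both libraries, the 95% intervals of the log2 ratio began at 10.17 and 8.33, respectively. No sequence is listed for either, so neither could be compared with other names.

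The 6 names called lower were between 12.2 and 59.6 RPM in the control and at or below 2.07 RPM under Mg-deficiency. The calling rule itself requires at least 10 RPM in the control for such a name. MiR2665, with no sequence listed, had 1324 counts (59.6 RPM) in the control and 1 count in the other. Its log2 ratio was -10.24, with an interval from -15.55 to -7.76. MiR5259 had 617 counts (27.8 RPM) and 3 counts, respectively, a log2 ratio of -7.56 (-9.84 to -6.00). MiR5228 had 285 counts (12.8 RPM) in the control and none under Mg-deficiency, where a count of 0 allows up to 0.148 RPM. Against this limit, miR5228 was 86.9-fold lower, and the 95% interval of its log2 ratio lay below -6.13.

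The remaining names called lower had reads in both libraries. MiR5268 had 337 counts (15.2 RPM) in the control and 10 counts (0.492 RPM) under Mg-deficiency, and its log2 ratio was -4.95 (95% interval, -6.02 to -4.05). MiR5256 had 271 counts (12.2 RPM) and 27 counts (1.33 RPM) and was 9.18-fold lower, a log2 ratio of -3.20 (-3.83 to -2.63). For miR5256, p = 8.42e-48 by the exact one-sided Audic-Claverie test of these 2 libraries, taken as the smaller tail. MiR5210 had 377 counts (16.97 RPM) and 42 counts (2.07 RPM), an 8.21-fold lower level with a log2 ratio of -3.04 (-3.53 to -2.58) and p = 1.10e-62 in the same exact test. When libraries were scaled to their known miRNA counts, miR5256 no longer reached 10 RPM in either library and its call was lost, although its log2 ratio was still -2.56.

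**Figure D2:**
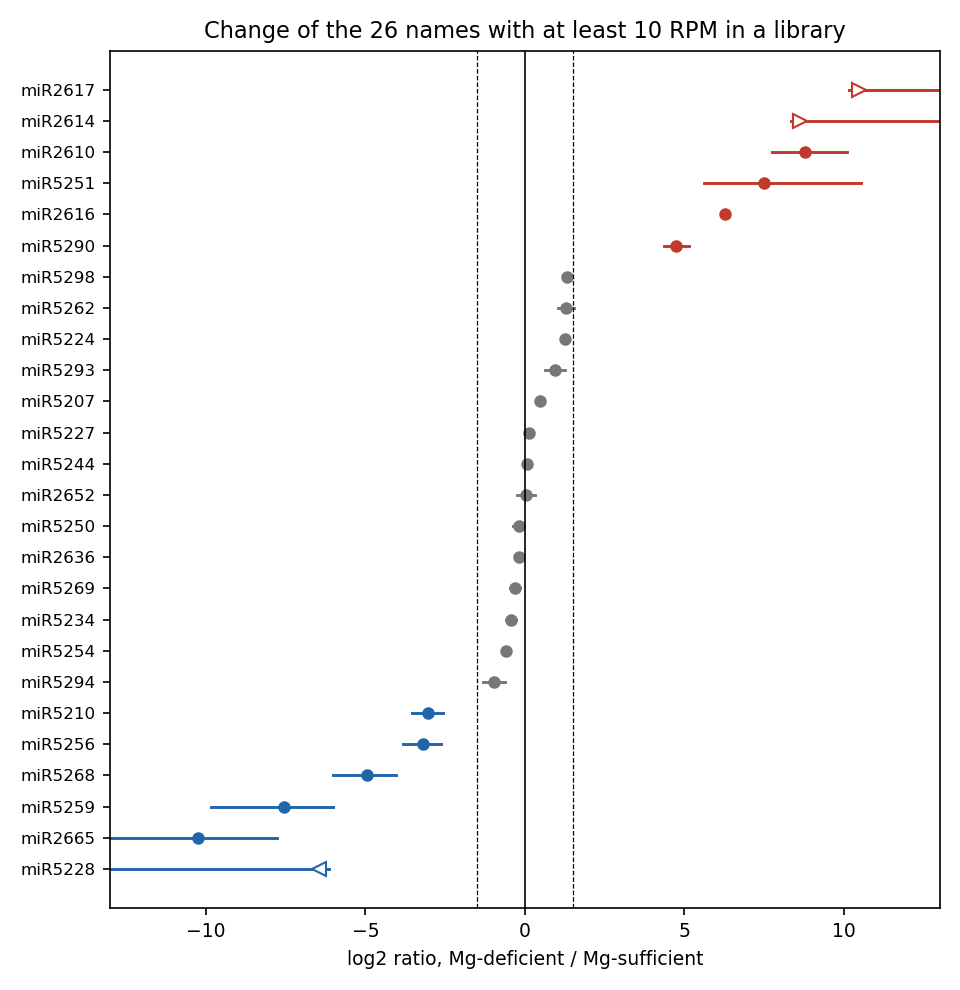
Log2 ratio, Mg-deficiency over control (x axis) for the 26 names past the filter of 10 RPM. Filled points are ratios, and open triangles are ratios against 3 counts for names with a count of 0 in a library. Bars are 95% counting intervals (bars that reach the frame go on beyond it), and dashed lines mark 1.5 in either direction. No point lies between 1.33 and 4.73 or between -3.04 and -0.96.

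Among the 14 uncalled names were miR5254 and miR5224, which with miR2616 were the 3 most abundant of the series by mean level, and 8 of the 14 had a log2 ratio within 0.5 of 0. MiR5254 had 35150 counts (1582 RPM) in the control and 21140 counts (1040 RPM) under Mg-deficiency, a log2 ratio of -0.61 (95% interval, -0.63 to -0.58). This is about that of the 1095 other names together, and after scaling to the known miRNA counts the ratio was 0.030. MiR5224 had 10604 counts (477 RPM) and 22940 counts (1128 RPM), respectively, a log2 ratio of 1.24 (1.21 to 1.27). It passed the threshold under the 3 scalings based on the known miRNAs, with 1.58 by edgeR's TMM normalization, 1.61 by DESeq2's size factors and 1.88 by their total count.

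MiR5298 and miR5262 lay just short of the threshold as well. MiR5298 had 598 and 1379 counts (26.9 and 67.8 RPM), a log2 ratio of 1.33 (95% interval, 1.19 to 1.47). MiR5262 had 190 and 427 counts (8.55 and 21.01 RPM), a ratio of 1.30 whose interval of 1.05 to 1.55 includes the threshold. Under the same 3 scalings both were past it, with 1.67, 1.70 and 1.97 for miR5298 and 1.63, 1.66 and 1.93 for miR5262. MiR5293, with 136 and 238 counts and a ratio of 0.94 (0.63 to 1.25), was past it only with the total count of known miRNAs, at 1.57.

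For miR5244, 1670 counts (75.2 RPM) in the control and 1588 counts (78.1 RPM) under Mg-deficiency gave a log2 ratio of 0.06, and the interval of -0.04 to 0.16 includes 0. MiR2652 had 225 and 211 counts (10.1 and 10.4 RPM), with an interval of -0.24 to 0.31. Their levels differed by no more than counting error. MiR5227 had 1106 and 1110 counts (49.8 and 54.6 RPM), a log2 ratio of 0.13 (0.01 to 0.25), and miR2636 had 1364 and 1089 counts (61.4 and 53.6 RPM), a ratio of -0.20 (-0.31 to -0.08). MiR5250, with 603 and 483 counts, had a ratio of -0.19 (-0.37 to -0.02). The remaining uncalled names were miR5207 at 0.47 (1053 and 1332 counts), miR5269 at -0.32 (759 and 556 counts), miR5234 at -0.44 (889 and 598 counts) and miR5294 at -0.96 (223 and 105 counts). All of these apart from miR5294 were smaller than the shift of 0.63 that scaling to the known miRNA counts brings.

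Below 10 RPM in both libraries lay 94 names, with 2647 counts together in the control (119 RPM) and 1625 counts under Mg-deficiency (79.9 RPM). The log2 ratio of these sums was -0.58 (95% interval, -0.67 to -0.49), near the -0.63 of all known names together. That of the 26 abundant names was 0.94 (0.93 to 0.96), but without miR2616 the ratio of the whole series was 0.22. Scaling to the known miRNA counts shifts ratios of sums by 0.63, so the difference in sign depends on the scaling. No more than 10 counts in either library were found for 34 of the 94, and the whole interval lay beyond the threshold for 0 of these 34, while 2 were called when the filter was left out. Without regard to abundance, 27 of the 120 names had a log2 ratio above 1.5 and 44 had one below -1.5, against 27.7% and 34.5% of all names. The whole 95% interval lay beyond the threshold for 15 of the 120 names in the upward and for 27 in the downward direction, a rule added after the data were seen. This compares with 14.4% and 18.8% of all names. By the calling rule without its abundance filter, 21 names were called higher and 29 lower, against 18.6% and 25.3% of all names. Of these, 15 higher and 23 lower names were below 10 RPM.

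The rare names with the largest ratios and at least 30 counts in a library were each at 0 in the other library. Under Mg-deficiency only, 84 counts of miR2585 (4.13 RPM), 61 of miR5206 (3.001 RPM), 33 each of miR2612 and miR5205 (1.62 RPM) and 31 of miR2622 (1.52 RPM) were found. Set against 3 counts, the measured level was 30.6-fold higher for miR2585 and 11.3-fold higher for miR2622. Their 95% intervals of the log2 ratio began at 4.61 and 3.11. In the control only, miR2597 had 185 counts (8.33 RPM), miR5230 had 159 (7.16 RPM), miR5278 had 64 (2.88 RPM), miR2677 had 58 (2.61 RPM) and miR2620 had 53 (2.39 RPM). Against 3 counts, these were from 16.2-fold (miR2620) to 56.4-fold (miR2597) lower under Mg-deficiency. Some rare names with reads in both libraries fell by more than the smallest of these folds. Among them were miR5217 (56 and 1 counts, 51.2-fold lower) and miR5247 (145 and 4 counts, 33.2-fold lower).

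The 45 names of the run from miR2585 to miR2687 had 4293 counts (193 RPM) in the control and 49409 counts (2431 RPM) under Mg-deficiency, a log2 ratio of 3.65. Without miR2616 the run had 168 and 470 RPM, a ratio of 1.49. Of their 7 names past the filter, 4 were called higher (miR2610, miR2614, miR2616 and miR2617), 1 lower (miR2665) and 2 were not called. The 75 names of the run from miR5204 to miR5299 had 2555 and 2699 RPM in the control and under Mg-deficiency, a log2 ratio of 0.08. Of their 19 names past the filter, 2 were called higher (miR5251 and miR5290), 5 lower and 12 were not called. Over all names past the filter, the shares called were 28.1% and 25.6%. The difference between the runs was not tested, since each ratio comes from the same pair of libraries.

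A sequence was listed for 65 of the 120 names, each of them reaching 1 RPM in a library. Of the 55 names without one, 51 were below 1 RPM, and the other 4 were miR2614, miR2617, miR2665 and miR5228. The listed sequences were 19 to 24 nt long. The 24 nt class was the largest, with 27 of 65 (41.5%), followed by the 21 nt class with 21 (32.3%). Among the 625 other names with a listed sequence the order was the reverse, with 27.2% of 24 nt or more and 35.2% of 21 nt.

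Length and first base went together. Of the 21 nt sequences of the series, 16 of 21 (76.2%) began with uracil and 2 with adenine. Of the 24 nt sequences, 17 of 27 (63.0%) began with adenine and 7 with uracil. In the other names the same pairing was seen in weaker form, with uracil first in 60.9% of the 21 nt sequences and adenine first in 42.9% of those of 24 nt or more. These are counts over the listed names, without regard to how often each was read. Adenine opened all 4 listed sequences of names called higher, 10 of the 22 listed sequences of the series past the filter, and 27 of the 69 listed among other names called higher.

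**Figure D3:**
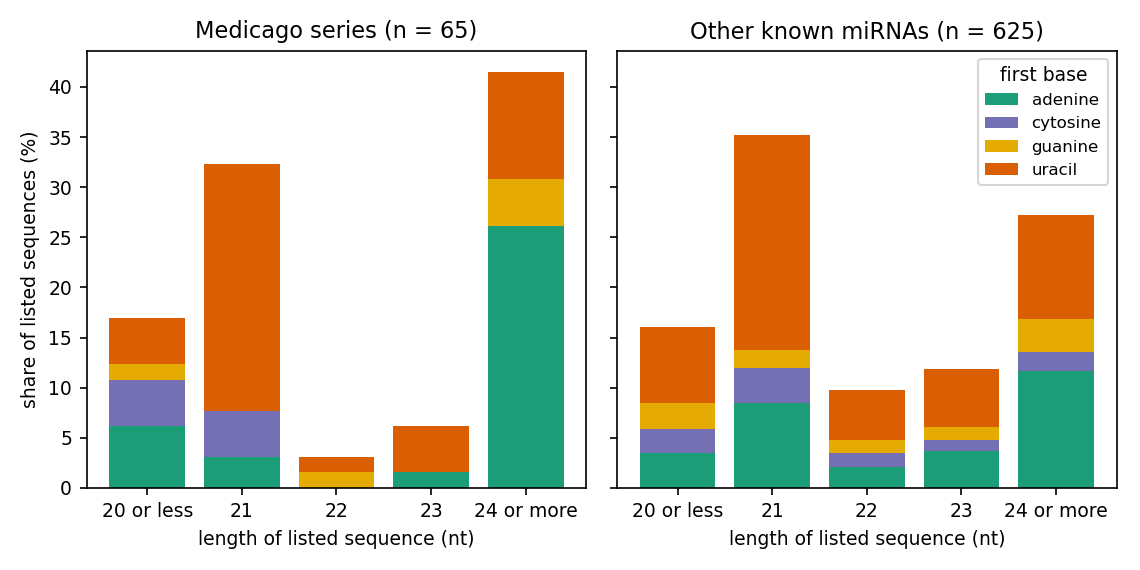
Share of listed sequences (y axis, percent) by length (x axis, nt) and first base (colours) for the 65 names of the Medicago series and the 625 other known miRNAs. In the series the 24 nt bar is the tallest, at 41.5%, and mostly adenine, and the 21 nt bar, at 32.3%, is mostly uracil.

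Counted by reads, the lengths followed single names. The 21 nt names had 1820 RPM in sum in the control and 1225 RPM under Mg-deficiency, and miR5254 held 86.9% and 84.9% of their counts in the control and under Mg-deficiency, respectively. The 11 names of 20 nt or less had 576 and 3177 RPM, with 82.8% of the counts from miR5224 in the control and 61.7% from miR2616 under Mg-deficiency. The 27 names of 24 nt had 230 and 326 RPM, and the largest single share was 42.7%, that of miR2610 under Mg-deficiency. Of the 8 names of 21 nt past the filter, 0 were called higher, against 28 of 108 among the other 21 nt names. The 4 names called higher with a listed sequence were 19, 20, 23 and 24 nt long. Of the 14 uncalled abundant names, 6 were 21 nt long, 5 of these with uracil first, and 5 were 24 nt long.

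**Figure D4:**
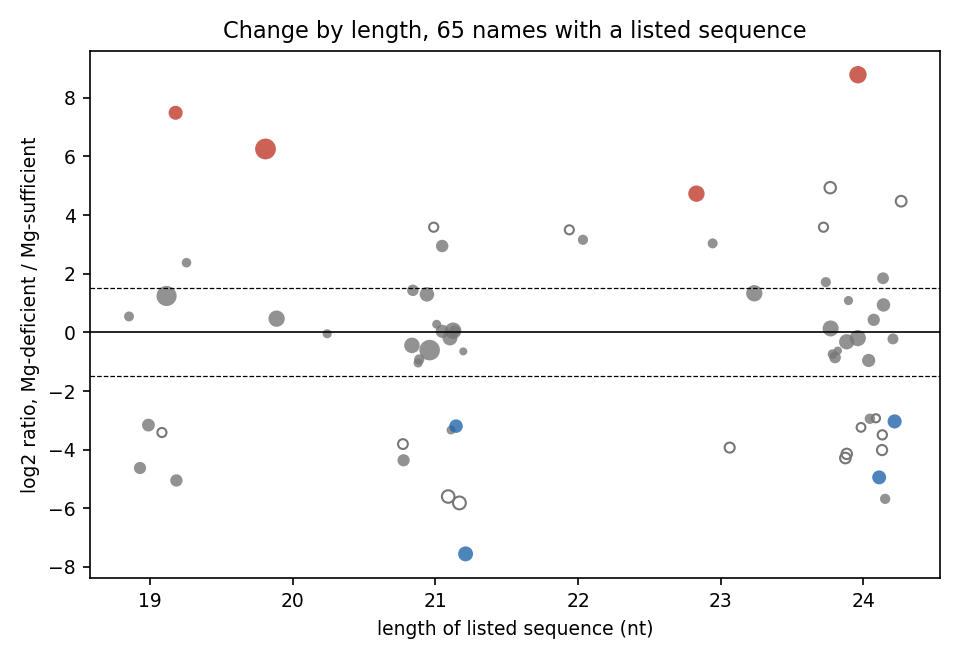
Log2 ratio, Mg-deficiency over control (y axis) against the length of the listed sequence (x axis, nt, points spread sideways for display) for 65 names. Point size increases with the higher of both levels, open points are lower bounds for names with a count of 0 in a library, red and blue mark names called higher and lower, and dashed lines mark 1.5. Names past 1.5 occur in both directions at 19, 21, 23 and 24 nt.

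The 65 listed sequences had 65 different seeds, so no seed family was found within the series. A seed was shared with a name outside the series by 5 names. The closest of these pairs was miR5211 and miR3627, which are shown because their first 18 bases are identical and 3 miRNA genes named after miR3627 are annotated in the citrus gene table.
miR5211: uCGCAGGGgagaugggaccgc
miR3627: uCGCAGGGgagaugggacuaac
MiR3627 had 7480 counts (337 RPM) in the control and 12241 counts (602 RPM) under Mg-deficiency, a log2 ratio of 0.84. MiR5211 had 20 counts (0.900 RPM) and 141 counts (6.94 RPM), a log2 ratio of 2.95 (95% interval, 2.26 to 3.70). Summed over both names, chosen after the sequences were seen, the ratio was 0.85. How the reads were divided between such names is not given in the sources used here, so the value of miR5211 is uncertain.

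Near-identical sequences under another name, that is, an overlap of at least 17 nt with at most 2 mismatches over its whole length, were listed for 2 names, and both were at 0 under Mg-deficiency. MiR2608, with 46 counts in the control, overlapped by 19 nt with miR1863, which had 1210 and 834 counts. MiR5278, with 64 counts, overlapped by 17 nt with miR6462, which had 92 and 55 counts. Summed with the partner, the log2 ratio was -0.46 for miR2608 and -1.38 for miR5278, within the threshold for both. None of the 8 called names with a listed sequence had such a partner. The called names miR2614, miR2617, miR2665 and miR5228, without a listed sequence, could not be compared.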

How the data were processed

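The authors cleaned the reads, mapped them to the C. sinensis genome, removed rRNA, tRNA, snRNA and snoRNA, aligned the rest to miRBase plant miRNAs, allowing 2 mismatches, and deposited the raw count of each known miRNA and the clean-read total of each library. Their normalized values, log2 ratios and p-values were not used. How reads matching several names were counted is not given in the sources used here. From the deposited counts, RPM was computed over the clean reads. A count of 0 was set to 0.01 RPM in the log2 ratio. Folds for such names were taken against 3 counts, without the counting error of the other library. Intervals (95%) were Wilson's for levels and exact Clopper-Pearson for ratios. All calls were made over the 1215 names, with the thresholds of the study's methods. Names were described when they had at least 10 RPM in a library or, below it, were among the 5 largest changes in each direction with at least 30 counts. Members and lists were chosen with earlier results of these data known. One name of the ranges is not reported here. Listed sequences came from the study's supplement, and gene names from RefSeq DVS_A1.0. Python 3.11.15, scipy 1.17.1, pandas 2.3.3, numpy 2.4.6, matplotlib 3.10.9, R 4.3.3, edgeR 4.0.16 and DESeq2 1.42.0 were used, the last 2 only for library scaling.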

Additional observations from a re-analysis of the deposited data

How the results depend on the processing

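No paired analysis was possible because each treatment has 1 library, and no replicate could be left out. Other library sizes shifted the log2 ratio of names with counts in both libraries by 0.34 (edgeR's TMM), 0.37 (DESeq2's size factors), 0.63 (total count of known miRNAs) and -0.26 (clean-read totals swapped between the libraries, as the study's text assigns them, with the counts left as labelled). Names with a count of 0 in a library moved by less, since that library was held at 0.01 RPM. In this order, the log2 ratio of the summed series was 1.24, 1.27, 1.54 and 0.64, and the median of the names past the filter was 0.39, 0.42, 0.73 and -0.21. The sum had a ratio of 0.59 without the 3 most abundant names and 0.22 without miR2616. All 12 calls were kept with TMM, DESeq2's size factors and swapped totals, and 11 with the known miRNA total. With that total, 10 names of the series were called higher, and 114 over all known names. The sign of uncalled names changed with TMM for miR2636 (0.14), miR5250 (0.15) and miR5269 (0.017), with DESeq2's size factors for miR2636 (0.17), miR5250 (0.18) and miR5269 (0.047), with the known miRNA total for miR2636 (0.44), miR5234 (0.19), miR5250 (0.44), miR5254 (0.030) and miR5269 (0.31), and with swapped totals for miR2652 (-0.22), miR5227 (-0.12) and miR5244 (-0.20). Without the abundance filter, all 120 names entered, 21 were called higher and 29 lower, and the median was -0.43. At 50 RPM in 1 library, 13 names remained, 5 were called higher and 1 lower, and the median was 1.24. With 10 RPM in both libraries, 12 names passed, of which 1 was called higher and 0 lower. With a linear ratio of 1.5 as the threshold, 10 were called higher and 8 lower, and with a log2 ratio of 1, 9 were called higher and 6 lower. Only 15 of the 27 names past the fold upward and 27 of the 44 downward were past it with the whole interval. With 1 count added, Fisher's exact test or near-identical names summed, 6 were called higher and 6 lower, as in the main analysis. Calls over all known names were not counted for the higher filters, the other thresholds or these last 3 settings. Biological variation could not be estimated.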
